A study of Mus musculus with 6 samples.

Results

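The 40 genes described here encode the machinery of macroautophagy and of mitophagy. They were chosen by name for the roles of their products, with earlier results of these data known. All 40 were found in the table of 54232 genes, and all 40 had enough counts to be among the 14335 genes tested. The data are strand-marked, poly(A)-selected RNA sequencing libraries from whole tibialis anterior, a fast muscle of the lower hind leg. They come from 3 mice with the genotype Delta 51, a deletion of exon 51 of the dystrophin gene Dmd (dEx51 4, dEx51 5 and dEx51 6), and from 3 wild-type mice (WT 1, WT 2 and WT 3). All 6 mice had the C57BL6 strain label and an age of 1 month, and no group received a treatment. The labels call the libraries biological replicates; whether mice shared a litter, and how the allele was made, is not stated there.

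In macroautophagy a double membrane, the phagophore, grows around cytoplasm or an organelle and closes into an autophagosome, which fuses with the lysosome. The ULK kinase complex starts the process, a class III phosphatidylinositol 3-kinase complex marks the membrane, lipid is delivered by ATG9A vesicles and ATG2 proteins, and an enzyme cascade attaches small ATG8 proteins to the membrane, where cargo receptors bind them. In mitophagy the cargo is a mitochondrion, tagged through PINK1 or carrying receptors such as BNIP3. Skeletal muscle relies on this turnover, and FoxO transcription factors are known to induce several of its genes when muscle is fasted or denervated.

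Libraries held 15681945 to 21020353 reads assigned to genes. Dmd had 47.7, 46.4 and 51.1 CPM (the gene's count scaled to a common library total, with the trimmed mean of M values, TMM) in dEx51 4, 5 and 6, against 235, 249 and 266 CPM in WT 1, 2 and 3. Its log2 fold change, dEx51 over WT, was -2.37 (SE 0.0944, edgeR adjusted p = 2.77e-05), so the libraries matched their labels. Muscle fibre markers were abundant in every library. The 10 listed summed to 96264, 93280 and 131191 CPM in dEx51 4, 5 and 6, and to 143361 to 147073 CPM in WT. edgeR called 0 of these 10 changed, with 4 at an unadjusted p under 0.05, while DESeq2 called 5 lower, limma-voom 2 lower, and edgeR 8 lower when dEx51 6 was left out. All 10 macrophage markers were higher in dEx51, with sums of 567 to 1275 CPM against 75.8 to 159 CPM in WT (Cd68 log2 fold change 4.08, edgeR adjusted p = 0.000298). Of 6 satellite cell and regenerating fibre markers 5 were higher (Chrna1 2.31, edgeR adjusted p = 2.77e-05), with sums of 282 to 343 CPM against 51.3 to 52.7 CPM. Of 6 markers each, 4 fibroblast markers were higher, 3 endothelial markers were lower and 4 Schwann cell markers were lower, and no marker of any list was at 0. The libraries are bulk tissue, so less RNA of a gene per cell and fewer cells that hold it cannot be told apart in any value below, and the part of this cell makeup in the member results was not tested.

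Among the 40 autophagy genes, 7 had lower RNA in dEx51 muscle and 2 had higher RNA. The 7 were the initiating kinases Ulk1 and Ulk2, the lipid suppliers Atg2a and Atg9a, the protease Atg4d, the cargo receptor Optn and the mitophagy kinase Pink1. The 2 were Uvrag, a partner of the lipid kinase, and Map1lc3a, an ATG8 protein. The remaining 31 were not called at an adjusted p under 0.05 with edgeR's quasi-likelihood test.

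Of the members 22.5% were therefore called, against a background of 28% of all genes tested. For falls the share was 17.5% of members against 11.9% of all genes, and for rises 5% of members against 16.1% of all genes. Log2 fold changes of the members ran between -0.67 and 0.44, with a median of -0.13 (11 positive and 29 negative), beside a median of -0.01 over all genes. The median absolute log2 fold change was 0.15 for members and 0.298 for all genes, and 0 members moved by more than 1 log2 unit, against 12% of all genes. The groups did not overlap for 19 members, 4 with every dEx51 library above every WT library and 15 with every one below, against a background of 45.5% in either direction, 23.8% above and 21.7% below. Of the members, 3 were higher and 11 lower in the authors' deposited table at a false discovery rate under 0.05, against a background of 37.9% of genes in either direction there, 19.1% higher and 18.8% lower.

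The counts depend on how libraries are scaled. TMM factors were 1.04 to 1.19 in dEx51 and 0.869 to 0.898 in WT, and scaling by library totals alone raised the median of all genes by 0.35 log2 units, with 5394 genes called higher and 334 lower against 2309 and 1701 with TMM. Under library totals 14 members were called higher and 2 lower, and the members' median was 0.22, still under the all-gene median of 0.34. The 7 falls and both rises named above kept their sign there, and of the falls Ulk1 (-0.33) and Pink1 (-0.30) kept their call. Over all genes, leaving out single libraries gave 1346 to 2662 called higher and 663 to 2157 called lower, so the calls varied in general. Among the members it gave 0 to 2 called higher and 4 to 7 called lower. Without dEx51 4 there were 2 and 4, without dEx51 5 0 and 4, without dEx51 6 2 and 7, without WT 1 0 and 5, without WT 2 0 and 4, and without WT 3 0 and 5.

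**Figure D1:**
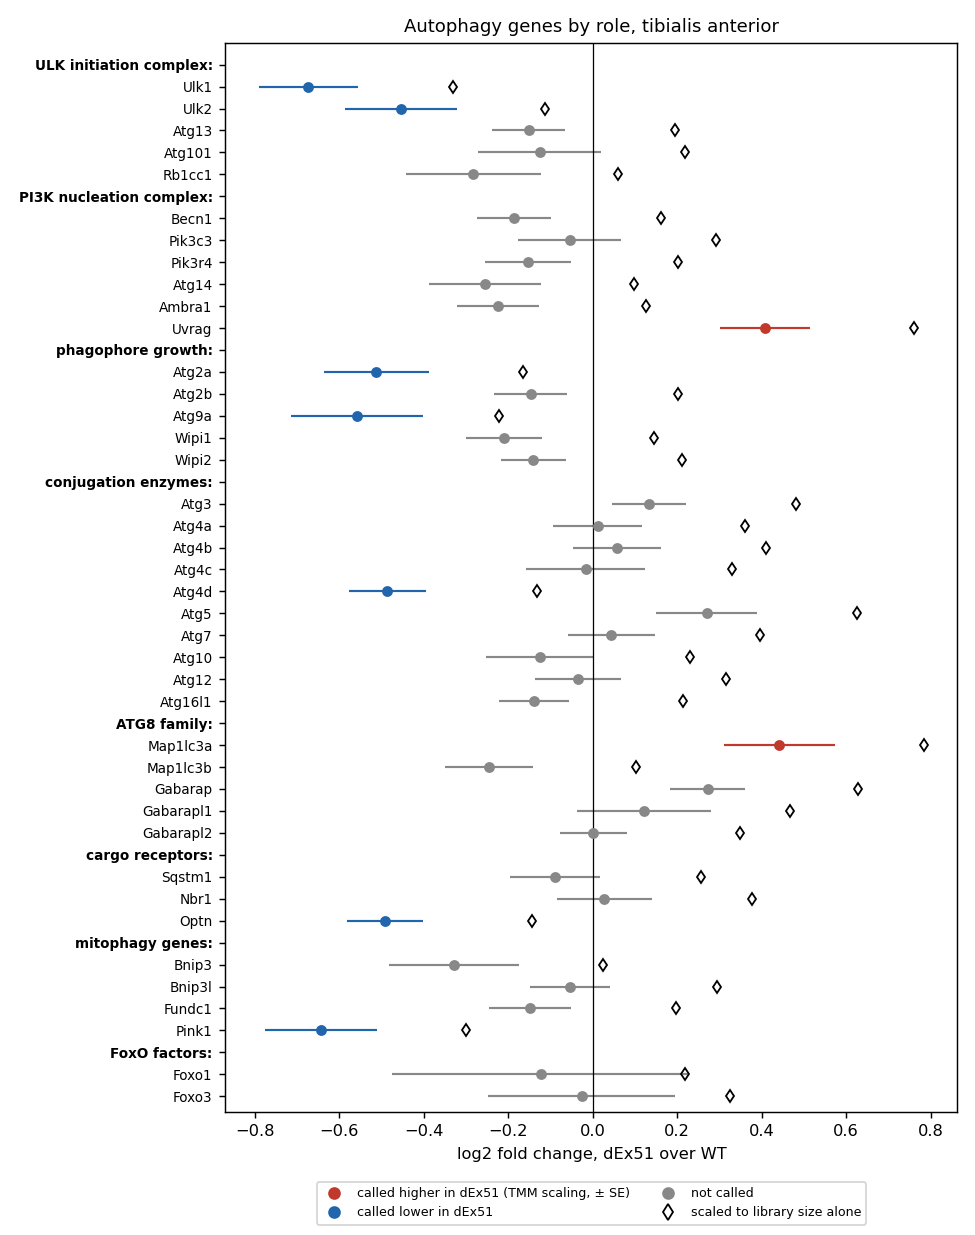
Log2 fold change, dEx51 over WT, of the 40 members by role in autophagy, as filled circles with edgeR standard errors as bars. Red circles were called higher and blue circles lower at an adjusted p under 0.05, and grey circles were not called. Open diamonds are the values scaled to library size alone. The 7 called falls lie between -0.67 and -0.45, and the 2 called rises are at 0.41 and 0.44.

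The ULK complex sets autophagy off when energy or amino acids are short, and 2 of its 5 genes fell. Ulk1, one of its paired kinases, had 58.5, 61.9 and 74.9 CPM in dEx51 4, 5 and 6, against 104, 112 and 95.3 CPM in WT 1, 2 and 3. Every dEx51 library was below every WT library, with dEx51 6 the nearest to WT. The log2 fold change was -0.67 (SE 0.117, edgeR adjusted p = 0.00567), which left 62.7% of the WT level, and Ulk1 was called in all 17 alternative settings tried, including each library left out. Ulk1 (ENSMUSG00000029512) spans chr5:110784488-110810097 on the minus strand of GRCm38 and has 27 exon blocks in GENCODE M21.

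Ulk2, the paralogue of Ulk1 and the more abundant of the pair per length, had 146, 153 and 200 CPM in dEx51 4, 5 and 6, against 213, 231 and 238 CPM in WT 1, 2 and 3. The groups did not overlap, although dEx51 6 came close to WT 1. The log2 fold change was -0.45 (SE 0.133, edgeR adjusted p = 0.0370). This call held without dEx51 6 (-0.61), and it was lost without dEx51 4 (-0.37), dEx51 5 (-0.39), WT 1 (-0.51), WT 2 (-0.45) or WT 3 (-0.43). The other 3 subunits, the adaptor Atg13, its partner Atg101 and the scaffold Rb1cc1 (FIP200), had log2 fold changes of -0.15, -0.13 and -0.28 and were not called. Within the pair, Ulk1 supplied 26.6% ± 0.837 of the summed length-scaled level in dEx51 and 29.6% ± 2.28 in WT (SD, n = 3 each, exact permutation p = 0.3).

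Start-site sequences of members are shown because these genes are described as targets of TFEB-family and FoxO factors, whose binding letters can be looked for. RefSeq windows on GRCm38.p6, from 250 bases before to 50 after a start, were at hand for 33 of the 40 members, in 36 windows. The E-box CACGTG, which reads the same on both strands, stood in 5 of the 36 windows (13.9%), against 7.15% of all 32851 promoter windows. The longer TFEB-type (CLEAR) site, an E-box with GT before and AC after it, stood in 0 member windows and in 0.326% of all windows. The FoxO core GTAAACA, or TGTTTAC on the other strand, stood in 0 member windows and in 3.65% of all windows. The GC box GGGCGG, or CCGCCC on the other strand, stood in 23 of 36 member windows (63.9%) and in 35.7% of all. Member windows were GC-rich, with a median of 60.7% G and C against 52.7% over all windows, and 29 of 36 (80.6%) had a CpG observed-to-expected ratio over 0.6, against 35.8% of all. The 5 windows with an E-box belong to Atg3, Atg5, Atg7, Atg14 and Bnip3, none of which was called changed. Those of Atg7 (chr6:114670846-114671145) and Atg14 (chr14:47568385-47568684) lie inside the gene. The outermost GENCODE M21 starts of these genes are at 114643097 and 47570649. The windows of Ulk1 and Pink1, which had the lowest log2 fold changes of the members, of Uvrag, which rose, and of Bnip3, which has both motifs, read 5′ to 3′ on the gene's strand with E-boxes and GC boxes in capitals.
Ulk1, chr5:110810032-110810331, minus strand: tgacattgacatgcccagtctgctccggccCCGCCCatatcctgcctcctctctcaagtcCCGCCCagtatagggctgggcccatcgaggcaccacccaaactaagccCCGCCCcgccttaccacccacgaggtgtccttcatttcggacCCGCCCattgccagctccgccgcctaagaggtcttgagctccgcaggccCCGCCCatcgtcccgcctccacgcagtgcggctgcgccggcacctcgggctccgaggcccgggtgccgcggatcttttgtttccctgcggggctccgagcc
Pink1, chr4:138326247-138326546, minus strand: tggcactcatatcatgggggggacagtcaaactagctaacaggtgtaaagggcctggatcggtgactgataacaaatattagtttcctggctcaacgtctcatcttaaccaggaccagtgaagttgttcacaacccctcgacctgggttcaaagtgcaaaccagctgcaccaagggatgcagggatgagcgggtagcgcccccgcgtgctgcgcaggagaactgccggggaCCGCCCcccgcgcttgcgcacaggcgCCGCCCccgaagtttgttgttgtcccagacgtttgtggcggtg
Uvrag, chr7:99141095-99141394, minus strand: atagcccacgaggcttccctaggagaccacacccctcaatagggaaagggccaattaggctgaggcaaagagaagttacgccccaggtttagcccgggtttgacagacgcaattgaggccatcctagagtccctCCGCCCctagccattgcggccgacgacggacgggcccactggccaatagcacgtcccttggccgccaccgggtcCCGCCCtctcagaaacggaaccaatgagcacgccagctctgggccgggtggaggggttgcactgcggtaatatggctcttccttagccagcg
Bnip3, chr7:138909457-138909756, minus strand: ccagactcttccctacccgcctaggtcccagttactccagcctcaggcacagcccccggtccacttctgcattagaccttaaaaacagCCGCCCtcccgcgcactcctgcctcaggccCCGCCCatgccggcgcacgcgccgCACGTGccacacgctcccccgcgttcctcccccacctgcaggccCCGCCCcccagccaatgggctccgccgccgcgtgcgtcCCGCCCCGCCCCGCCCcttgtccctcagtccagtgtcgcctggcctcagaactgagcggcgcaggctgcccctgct
The Ulk1 window holds 5 GC boxes, all before the start, the Pink1 and Uvrag windows 2 each, and the Bnip3 window 6, of which 3 overlap in a run next to the start. The E-box of Bnip3 begins 108 bases before the start. These are matches of letters in the reference and not sites shown to be bound.

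The class III phosphatidylinositol 3-kinase complex makes the lipid mark to which later factors bind, and 1 of its 6 genes rose. Uvrag, a partner of beclin that takes part in autophagosome and endosome maturation, had 18.5, 22.3 and 20.9 CPM in dEx51 4, 5 and 6, against 15.5, 16.3 and 14.7 CPM in WT 1, 2 and 3. All dEx51 libraries were above all WT libraries. Its log2 fold change was 0.41 (SE 0.107, edgeR adjusted p = 0.0249). The call was lost without dEx51 5 (0.36), WT 1 (0.40), WT 2 (0.44) or WT 3 (0.37), and held without dEx51 4 (0.48) or dEx51 6 (0.39). Uvrag (chr7:98885021-99141141, minus strand) carries stretches at least 95% identical to ones in 14 other genes, so reads from them cannot be assigned with certainty. These include 344 bases in Txndc16 and in Klhl20, 345 in Mettl6, 282 in Gga3 and 226 in Tsc2. Of these, Txndc16 (4263 counts over all libraries), Klhl20 (2294) and Tsc2 (11146) had more counts than Uvrag (2127).

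Becn1, beclin, the core subunit with the highest length-scaled level of this group in WT, had 32, 35.1 and 36.3 CPM in dEx51 4, 5 and 6, against 39.1, 40.9 and 37.5 CPM in WT 1, 2 and 3. Its dEx51 libraries were all below the WT libraries by a small margin, and the log2 fold change of -0.19 (SE 0.0881) was not called (edgeR adjusted p = 0.149). Exons of the opposite-strand gene Cntd1, which had 22 counts over all libraries, cover 43.9% of the length of Becn1. The catalytic subunit Pik3c3 (-0.05), its regulatory kinase Pik3r4 (-0.15), the autophagy-specific subunit Atg14 (-0.25) and the regulator Ambra1 (-0.22) were not called either, although Ambra1 was lower in the authors' deposited table (FDR 0.0493).

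Phagophore growth needs lipid, delivered by ATG9A vesicles and by the lipid-transfer proteins ATG2A and ATG2B at sites marked by WIPI proteins. All 5 of these genes had every dEx51 library below every WT library, against a background of 21.7% of all genes tested, and 2 passed the test. Atg9a, a membrane-spanning lipid scramblase, had 44.4, 43.2 and 64.3 CPM in dEx51 4, 5 and 6, against 77.6, 76.3 and 69.4 CPM in WT 1, 2 and 3. Both dEx51 4 and dEx51 5 lay well below WT, and dEx51 6 lay just under the lowest WT library. The log2 fold change was -0.56 (SE 0.155, edgeR adjusted p = 0.0310). Without dEx51 6 it was -0.77 and called, and the call was lost without dEx51 4 (-0.47), dEx51 5 (-0.45), WT 1 (-0.53), WT 2 (-0.55) or WT 3 (-0.61).

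Atg2a had 23.8, 22.6 and 25.9 CPM in dEx51 4, 5 and 6, against 37.3, 37.0 and 28.6 CPM in WT 1, 2 and 3. The WT libraries were uneven, with WT 3 near the dEx51 range. Atg2a thus had a log2 fold change of -0.51 (SE 0.124, edgeR adjusted p = 0.0183). The call held without dEx51 6 (-0.57) or WT 3 (-0.63), and was lost without dEx51 4 (-0.50), dEx51 5 (-0.46), WT 1 (-0.46) or WT 2 (-0.46).

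Its paralogue Atg2b was not called (-0.15), nor were the phosphoinositide binders Wipi1 (-0.21) and Wipi2 (-0.14). Wipi1, the gene of this group with the highest length-scaled level, had 87.4, 77.2 and 74.4 CPM in dEx51 4, 5 and 6, against 91.6, 94.0 and 90.6 CPM in WT 1, 2 and 3. The WT libraries were nearly equal and the dEx51 libraries lay slightly below them (SE 0.0899, edgeR adjusted p = 0.118); the authors' deposited table has it lower (FDR 0.0473). Atg2a supplied 54.3% ± 0.611 of the summed length-scaled level of both Atg2 genes in dEx51 and 60.2% ± 4.90 in WT (SD, n = 3 each, exact permutation p = 0.2).

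**Figure D2:**
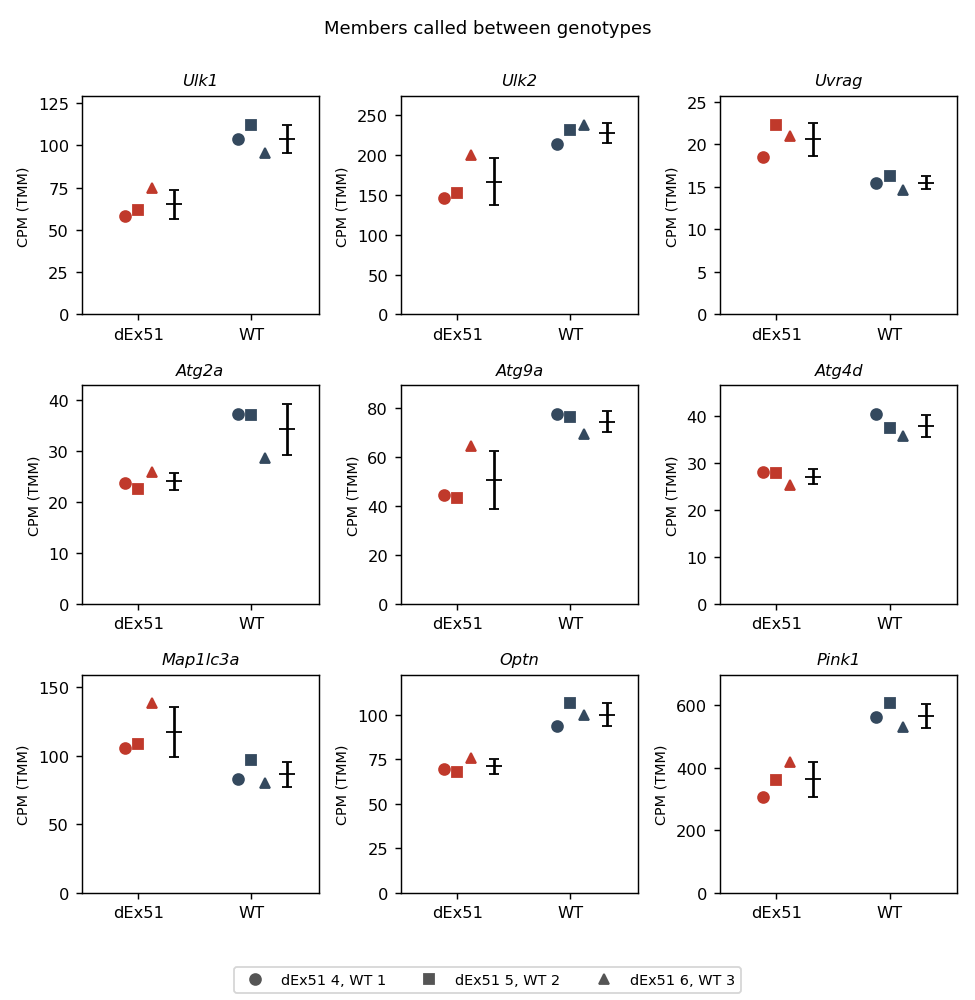
CPM of the 9 called members in each library, dEx51 left of WT, with group mean and SD beside the points. dEx51 6 is the dEx51 library nearest to the WT mean for 6 of the 7 members that fell.

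The position of dEx51 6 recurred across the falls. It was the dEx51 library nearest to the WT mean for 6 of the 7 members called lower (all but Atg4d), dEx51 4 was nearest for Atg4d, and dEx51 5 for none. The same library had the highest sum of muscle fibre markers in its group, 131191 CPM, and the lowest sum of macrophage markers, 567 CPM. The macrophage sum was 826 CPM in dEx51 4 and 1275 CPM in dEx51 5. The part of this in the member values was not tested. The same count was not made over all genes called lower, so the position of dEx51 6 is not shown to be particular to these members. Over all genes, 2157 were called lower without dEx51 6, against 1701 with all libraries, 986 without dEx51 4 and 759 without dEx51 5.

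The conjugation enzymes attach ATG8 proteins to lipid, and 1 of their 10 genes fell. Atg4d, one of 4 proteases that trim ATG8 proteins and release them from membrane, had 28.2, 27.9 and 25.3 CPM in dEx51 4, 5 and 6, against 40.6, 37.6 and 35.9 CPM in WT 1, 2 and 3. The groups were well separated and each was tight. Atg4d fell by 0.49 on the log2 scale (SE 0.0915, edgeR adjusted p = 0.00748), and the call held whichever library was left out (-0.53 to -0.44). Exons of Kri1 on the opposite strand cover 19.3% of the length of Atg4d (chr9:21265293-21277772, plus strand). Kri1 had 524 counts over all libraries and Atg4d 3704, and whether the counting used strand is not known here.

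The other proteases did not follow: Atg4a, Atg4b and Atg4c had log2 fold changes of 0.01, 0.06 and -0.02 and were not called. Atg4d held 24.0% ± 1.82 of the summed length-scaled level of the 4 proteases in dEx51 and 30.9% ± 0.825 in WT. Atg4a held 39.8% ± 1.05 in dEx51 and 36.2% ± 0.906 in WT (SD, n = 3 each). In both cases the groups did not overlap and the exact permutation p was 0.1, the smallest that 3 against 3 libraries allow, or 0.28 adjusted over the 14 shares compared. These shares do not depend on scaling between libraries. They are tied to each other, because a lower level of any gene raises the shares of the rest. The higher share of Atg4a is thus not a result separate from the fall of Atg4d.

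Of the remaining enzymes, the E1 Atg7 (0.04), the E2 enzymes Atg3 (0.13) and Atg10 (-0.13), the conjugate partners Atg5 (0.27) and Atg12 (-0.03), and Atg16l1 (-0.14), which places the conjugate on the membrane, were not called. Atg12, listed with the highest length-scaled level of the enzymes, had 33.7, 35.4 and 35.5 CPM in dEx51 4, 5 and 6, against 31.4, 36.8 and 39.0 CPM in WT 1, 2 and 3, and the groups overlapped (edgeR adjusted p = 0.826). Its deposited exon length of 2492 bases is under the 7711 bases of GENCODE M21, whereas lengths were equal for the other 39 members, so its place in the order of levels is uncertain.

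ATG8 proteins coat the autophagosome membrane and hold cargo receptors, and 1 of 5 genes rose. Map1lc3a, which encodes LC3A, had 106, 108 and 138 CPM in dEx51 4, 5 and 6, against 82.8, 96.7 and 79.8 CPM in WT 1, 2 and 3. The groups did not overlap, with dEx51 6 the highest. The log2 fold change was 0.44 (SE 0.131, edgeR adjusted p = 0.0383), and it was called without dEx51 4 (0.51) but not without dEx51 5 (0.51), dEx51 6 (0.31), WT 1 (0.40), WT 2 (0.52) or WT 3 (0.38). Map1lc3a also had the highest length-scaled level of the family, at 99.5 ± 15.4 RPKM (CPM per kilobase of exon, computed from counts) in dEx51 and 73.2 ± 7.65 RPKM in WT (SD, n = 3 each).

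Gabarap, a member of the second ATG8 branch, had 106, 114 and 98.2 CPM in dEx51 4, 5 and 6, against 89.5, 89.5 and 85.1 CPM in WT 1, 2 and 3. Every dEx51 library was above WT, yet the log2 fold change of 0.27 (SE 0.0887) just missed the threshold (edgeR adjusted p = 0.0525); it was called with DESeq2 (adjusted p = 0.0468), with a stricter filter, without dEx51 6 (0.32) and in the authors' deposited table (FDR 0.0359). Map1lc3b, which encodes the LC3B that is widely used as an autophagosome marker, had 101, 118 and 123 CPM in dEx51 4, 5 and 6, against 126, 141 and 140 CPM in WT 1, 2 and 3. Its dEx51 libraries were all below WT, and its log2 fold change of -0.24 (SE 0.104) was not called (edgeR adjusted p = 0.116), while the authors' deposited table has it lower (FDR 0.0357). Gabarapl1 and Gabarapl2 had log2 fold changes of 0.12 and 0.00 and were not called.

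Within the family, the shares of LC3A and LC3B differed in opposite directions, although no share passed after adjustment. Map1lc3a held 46.8% ± 3.79 of the summed length-scaled level in dEx51 and 41.3% ± 2.29 in WT, Map1lc3b 7.17% ± 0.337 in dEx51 and 10.2% ± 0.487 in WT, and Gabarapl2 10.3% ± 0.569 in dEx51 and 12.3% ± 0.908 in WT (SD, n = 3 each). For each of these 3 genes the groups did not overlap (exact permutation p = 0.1, 0.28 adjusted over the 14 shares). Shares of this family are tied to each other too, and Gabarapl2 itself was not called (log2 fold change 0.00). Gabarap held 27.4% ± 3.63 in dEx51 and 27.0% ± 1.37 in WT (exact permutation p = 0.8). Levels per length rest on the union of all annotated exons, so a gene with a long and little-used exon is listed too low.

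**Figure D3:**
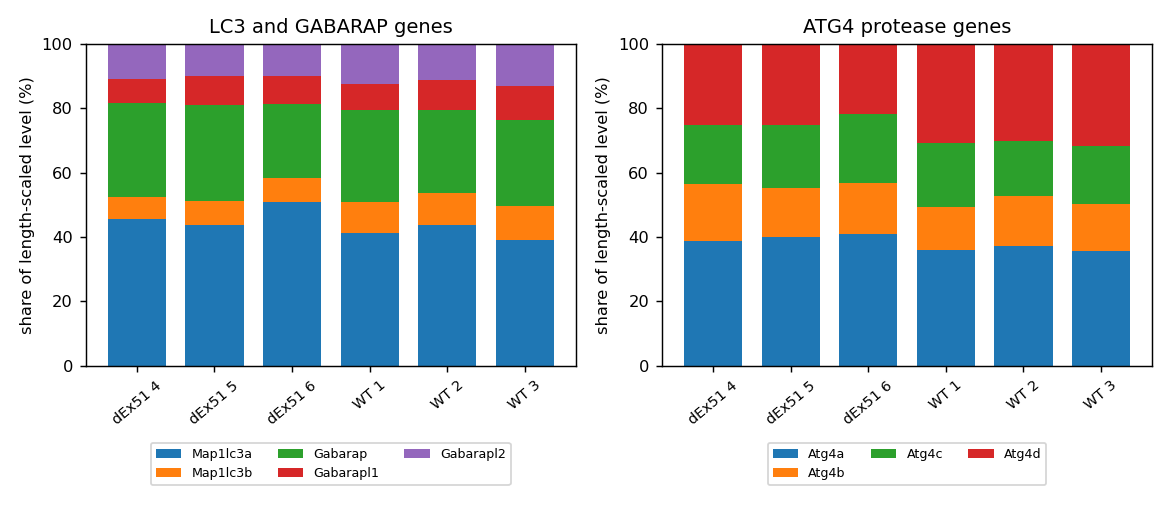
Share of the summed length-scaled level held by each gene of the ATG8 family and of the ATG4 proteases, in percent. Each library is a stacked bar, dEx51 left of WT. The group means, not drawn, are 46.8% in dEx51 and 41.3% in WT for Map1lc3a, 7.17% and 10.2% for Map1lc3b, and 24.0% and 30.9% for Atg4d.

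Cargo receptors join ubiquitin-tagged material to ATG8 proteins, and 1 of 3 genes fell. Optn, optineurin, which also acts in PINK1-dependent mitophagy, had 69.7, 67.9 and 75.8 CPM in dEx51 4, 5 and 6, against 93.8, 107 and 99.8 CPM in WT 1, 2 and 3. The groups were separated by a clear gap. Optn fell by 0.49 on the log2 scale (SE 0.0899, edgeR adjusted p = 0.00665), and the call held whichever library was left out (-0.54 to -0.45).

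Sqstm1, which encodes the receptor p62, had the highest length-scaled level of the receptors, at 127 ± 11.9 RPKM in dEx51 and 135 ± 7.33 RPKM in WT (SD, n = 3 each). It had 399, 407 and 472 CPM in dEx51 4, 5 and 6, against 429, 478 and 452 CPM in WT 1, 2 and 3. The groups overlapped (log2 fold change -0.09, SE 0.106, edgeR adjusted p = 0.571). Nbr1, a related receptor, was not called (0.03, SE 0.112, edgeR adjusted p = 0.877).

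Of the 4 mitophagy genes 1 fell. Pink1, the kinase that builds up on damaged mitochondria and starts their ubiquitin tagging, had 307, 361 and 419 CPM in dEx51 4, 5 and 6, against 561, 606 and 529 CPM in WT 1, 2 and 3. All dEx51 libraries were far below WT, dEx51 6 the least so. Pink1 had a log2 fold change of -0.64 (SE 0.132, edgeR adjusted p = 0.0101), leaving 64.1% of the WT level, and the call held whichever library was left out (-0.76 to -0.54). Per length Pink1 had the highest mean of the 40 members in both groups. Its means were 135 ± 20.9 RPKM in dEx51 and 211 ± 14.5 RPKM in WT (SD, n = 3 each). In dEx51 4 Sqstm1 (119 RPKM) was above Pink1 (115 RPKM). Pink1 spans chr4:138313409-138326307 on the minus strand.

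The mitochondrial receptors had no call. Bnip3 had 84.2, 103 and 97.9 CPM in dEx51 4, 5 and 6, against 92.2, 134 and 132 CPM in WT 1, 2 and 3, so WT 1 fell inside the dEx51 range. Its log2 fold change was -0.33 (SE 0.154, edgeR adjusted p = 0.146), and it was called without WT 1 (-0.49, edgeR adjusted p = 0.0254) and in the authors' deposited table. Its paralogue Bnip3l (NIX) was at -0.05 and the outer-membrane receptor Fundc1 at -0.15, neither called. Bnip3 held 76.9% ± 0.566 of the summed length-scaled level of the pair in dEx51 and 79.8% ± 3.49 in WT (SD, n = 3 each, exact permutation p = 0.4).

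Both FoxO factors varied more between mice of a genotype than between genotypes. Foxo1 had 42.0, 60.8 and 74.1 CPM in dEx51 4, 5 and 6, against 31.2, 76.4 and 85.2 CPM in WT 1, 2 and 3. Foxo3 had 42.0, 60.1 and 58.4 CPM in dEx51 4, 5 and 6, against 37.0, 64.0 and 62.5 CPM in WT 1, 2 and 3. In both groups 1 library was the lowest, dEx51 4 and WT 1. The others stood near each other, except that dEx51 5 lay between dEx51 4 and dEx51 6 for Foxo1. The log2 fold changes were -0.12 for Foxo1 (SE 0.352, edgeR adjusted p = 0.822) and -0.03 for Foxo3 (SE 0.222, edgeR adjusted p = 0.942), and neither had an unadjusted p under 0.05 or was called by DESeq2 or limma-voom. The biological coefficient of variation of Foxo1, 0.303, stood at the 94.4th percentile of all genes tested, and that of Foxo3, 0.198, at the 78.1st. With this spread only a large difference could have been called.

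The low libraries dEx51 4 and WT 1 were also low for Gabarapl1, with 28.9 CPM in dEx51 4 beside 38.5 and 40.5 CPM in its group mates, and 27.4 CPM in WT 1 beside 35.1 and 36.7 CPM in its group mates. Both were more than 0.3 log2 units below the mean of their group mates for these 3 members, or 7.5% of the 40, and for 3.72% of all genes tested. Outside the members, Sesn1, a stress-induced regulator of nutrient sensing, and Klf15, a transcription factor induced by glucocorticoid and fasting, showed the same. Both were chosen after their values were seen. Ddit4, Trp53inp1, Trim63 and Fbxo32, from the gene lists described further below, showed it too. The labels give these libraries the same replicate number, 1, and nothing else that they share. Without both libraries 0 members were called higher and 3 lower, Ulk1, Atg4d and Optn, with 4 libraries left.

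**Figure D4:**
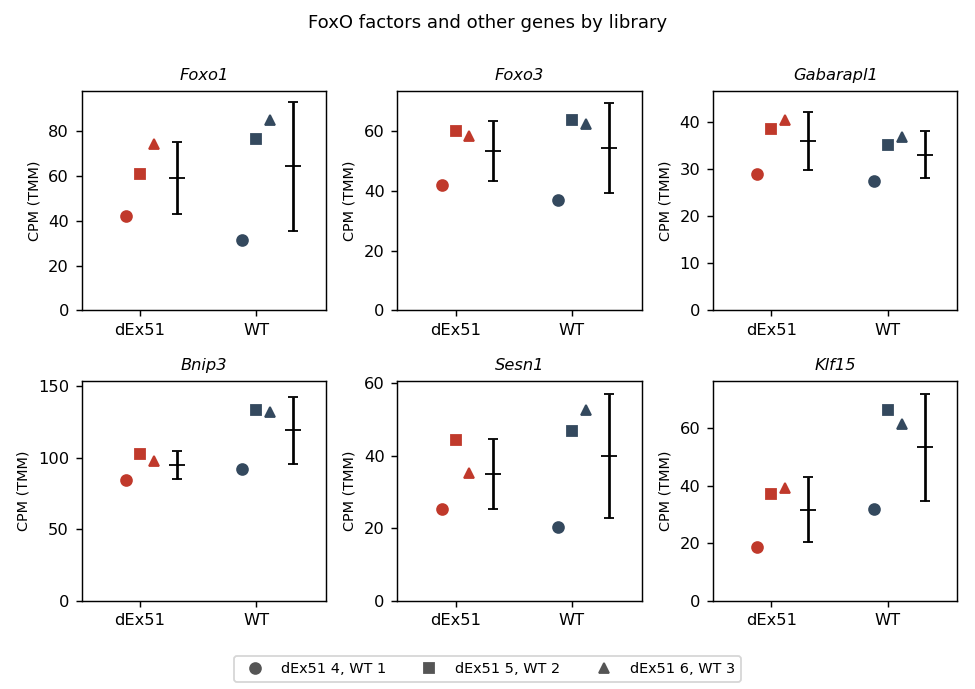
CPM by library for Foxo1, Foxo3, Gabarapl1, Bnip3, Sesn1 and Klf15, dEx51 left of WT, with group mean and SD; circles are dEx51 4 and WT 1. The circles are the lowest point of their group in every panel, at 42.0 and 31.2 CPM for Foxo1.

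Genes that act around the core machinery were taken from lists of their own. Of 73 listed genes in 6 lists 71 were tested, with 5 called higher and 11 lower, or 7.04% and 15.5%, beside the 16.1% and 11.9% of all genes. Under library totals alone 21 were called higher and 1 lower, Foxo4 (-0.39). Leaving out single libraries gave 1 to 6 called higher and 3 to 17 lower: 2 and 4 without dEx51 4, 1 and 4 without dEx51 5, 6 and 17 without dEx51 6, 3 and 11 without WT 1, 1 and 3 without WT 2, and 3 and 7 without WT 3. Over all genes the fits without single libraries called 1346 to 2662 higher and 663 to 2157 lower. Among 20 other autophagosome genes 2 rose and 2 fell. Vamp8, a fusion protein of the autophagosome and lysosome, averaged 19.2 ± 2.05 CPM in dEx51 and 14.2 ± 0.44 CPM in WT, and Tmem55b averaged 13.4 ± 1.34 CPM in dEx51 and 10.4 ± 0.50 CPM in WT (SD, n = 3 each). The tether Epg5 (log2 fold change -0.51) and the fusion protein Snap29 (-0.39) were the falls. Among 11 further cargo receptors and chaperones Calcoco1 fell (-0.41) and the reticulophagy receptor Rtn3 rose (0.30), and neither the kinase Tbk1 (0.31) nor the chaperone Hspb8 (0.37) was called. Each of these 6 calls was lost without dEx51 4 (for Epg5 -0.40, for Tmem55b 0.29), without dEx51 5 (-0.47 and 0.39) or without WT 2 (-0.54 and 0.40). Vamp8, Tmem55b and Epg5 lost theirs without WT 1 (0.43, 0.33 and -0.46) and WT 3 (0.41, 0.36 and -0.56) too, Rtn3 without WT 1 (0.28), and Snap29 and Calcoco1 without WT 3 (-0.34 and -0.42). Tmem55b, called at an adjusted p of 0.0492 with edgeR, also missed the threshold with upper-quartile factors (0.0505), no filter (0.0802), DESeq2 (0.0800) and limma-voom (0.0540), and Rtn3 did with no filter (0.0583). Hspb8 was called without WT 1 (0.49) and with no filter, and Tbk1 with upper-quartile factors and with a stricter filter.

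Among 9 further mitophagy genes 3 fell (33.3%, beside 11.9% of all genes) and 0 rose (beside 16.1% of all genes). Under library totals alone 0 were called lower and 1 higher. Bcl2l13, a mitophagy receptor, averaged 98.4 ± 7.94 CPM in dEx51 and 130 ± 2.81 CPM in WT, a log2 fold change of -0.41 (SE 0.0903, edgeR adjusted p = 0.0133, n = 3 each). Vdac1, an outer-membrane channel that is ubiquitinated in mitophagy, was at -0.52 and Fundc2 at -0.40, and the ligase Mul1 (-0.32) was not called except without WT 3 (-0.43). The call of Bcl2l13 was lost without dEx51 5 (-0.33) or WT 2 (-0.40). Those of Vdac1 and Fundc2 were lost without dEx51 4 (-0.47 and -0.36), dEx51 5 (-0.46 and -0.33), WT 2 (-0.47 and -0.38) or WT 3 (-0.53 and -0.38). Vdac1 is also a measure of mitochondrial content, which was not tested here.

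Among 15 genes of nutrient and energy sensing 3 fell (20%, beside 11.9% of all genes) and 0 rose (beside 16.1% of all genes). Under library totals alone 0 were called lower and 4 higher. Tsc1 and Tsc2, which together restrain the mTOR kinase, fell by 0.55 and 0.53 on the log2 scale (edgeR adjusted p = 0.00742 and 0.00872) and held their calls whichever library was left out. Mtor, the kinase that phosphorylates and holds back ULK1 when nutrients are plentiful, averaged 51.6 ± 3.09 CPM in dEx51 and 67.7 ± 3.90 CPM in WT (SD, n = 3 each), a log2 fold change of -0.39 (edgeR adjusted p = 0.0142). Its call was lost without dEx51 4 (-0.34) or WT 2 (-0.35). The AMPK subunit Prkaa1 was not called (0.21).

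Among 8 transcription factors of lysosome and autophagy genes 1 rose and 2 fell (12.5% and 25%, beside 16.1% and 11.9% of all genes). Under library totals alone 1 was called higher and 1 lower. Foxo4, another FoxO factor, averaged 111 ± 23.6 CPM in dEx51 and 184 ± 9.29 CPM in WT (SD, n = 3 each), a log2 fold change of -0.73 (SE 0.148, edgeR adjusted p = 0.00954), and was called in all 15 alternatives run for it. Tfeb fell (-0.48) and its relative Tfe3 rose (0.48), and the coactivator Trp53inp2 was not called (-0.23). Both calls were lost without dEx51 4 (-0.40 for Tfeb and 0.42 for Tfe3), dEx51 5 (-0.44 and 0.46) or WT 2 (-0.44 and 0.46), and that of Tfe3 without WT 3 (0.43). Among 8 FoxO-linked atrophy genes the lysosomal protease Ctsl rose, at 210 ± 11.1 CPM in dEx51 and 113 ± 12.3 CPM in WT (SD, n = 3 each, log2 fold change 0.89, edgeR adjusted p = 0.00143). The macrophage marker sums given above also rose beside Ctsl, a gene that macrophages express too, and their part in its rise was not tested. Klf15 (-0.75, SE 0.332), the ubiquitin ligase Fbxo32 (-0.62, SE 0.302) and the metabolic kinase Pdk4 (-0.46, SE 0.385) were not called. With no filter on low counts Klf15 (edgeR adjusted p = 0.00231) and Fbxo32 (0.00903) were called lower. Klf15 was also called without WT 1 (-1.03, edgeR adjusted p = 0.0399) and without WT 1 and dEx51 4 (-0.75, edgeR adjusted p = 0.0104), both of which had low Klf15 values in their group.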

How the data were processed

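The 40 members and the other gene lists were chosen with earlier results of these data known. Whole-number read counts of each gene, not normalized, were deposited by the authors with its exon length. They also deposited RPKM values (normalized to length and library), and a table of the comparison with log2 fold changes and log2 CPM, a likelihood-ratio score, p-values and −log10 of p, per the file headers. Per the submitters' processing notes, tools included featureCounts 1.6.0, edgeR 3.30.1 and FastQC 0.11.4, with GRCm38 (mm10) as the build; aligner, strand setting and annotation release were not given in the sources used here. RPKM as deposited were used only in an alternative; the RPKM printed were computed from counts, TMM-scaled library sizes and deposited lengths.

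The main test was edgeR 4.0.16 (R 4.3.3), quasi-likelihood, two-sided, dEx51 against WT, with TMM scaling, the default filter by group (minimum count 10) and Benjamini-Hochberg adjustment over 14335 genes, called under 0.05. Standard errors of log2 fold changes were worked back from the F statistic. The common biological coefficient of variation was 0.155. Shares of a family were compared with a two-sided exact permutation test over the 6 libraries. Genes given in full are the called members and, in each of 8 roles, the member with the highest length-scaled WT level; pathway lists name up to 4 genes with the smallest adjusted p, and other named genes were chosen after their values were seen. Alternatives were other scalings and filters, DESeq2 1.42.0, limma-voom and limma-trend on deposited RPKM after log2 (limma 3.58.1, pseudocounts 1 and 0.1), a replicate block and each library left out. Leaving out WT 1 with dEx51 4, and running the alternatives on pathway genes, were added after seeing the data. Replicate libraries differed by more than sampling noise (chi-square 8.81 to 47.6 per degree of freedom). The test was tried on simulated counts in 3 runs, with 200 changed genes planted per run among up to 14063 tested. It recovered 14.1% of 1.5-fold changes, 62.4% of 2-fold changes and 92.2% of 4-fold changes. Of its calls 7.89% were false, against a nominal 5%. In the data 28% of the genes tested were called, a far larger share than was planted. The shares recovered and false may therefore differ in the data. A member without a call may still have changed by an amount like those of the called members. Coordinates come from GENCODE M21 and promoter windows from RefSeq.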

Additional observations from a re-analysis of the deposited data

How the results depend on the processing

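With DESeq2 size factors, upper-quartile factors, no filter, a stricter filter, DESeq2 or limma-voom, 2 to 3 members were called higher and the same 7 were called lower; the sign of every member was kept except Foxo3 under limma-voom (0.00094). With library size alone 5394 genes were called higher and 334 lower, 14 and 2 of them members, the members' median was 0.22, and 33 members were positive; relative to the shift of 0.35, or called in the other direction, Atg12 (0.32), Sqstm1 (0.26) and Bnip3l (0.30) reversed. The deposited RPKM gave 13 members higher with either pseudocount, with 1 lower at a pseudocount of 1 and 2 lower at 0.1. There Pik3c3 (0.25), Atg4c (0.26), Atg12 (0.30), Sqstm1 (0.26), Bnip3l (0.27), Foxo1 (0.26) and Foxo3 (0.30) reversed at a pseudocount of 1, and Atg12 (0.32), Sqstm1 (0.26), Bnip3l (0.29) and Foxo3 (0.34) at 0.1. The cause was not tested. Without WT 1 and dEx51 4, which leaves fewer samples, 1440 genes were higher and 686 lower, 0 and 3 of them members, and Atg4b (-0.017), Atg4c (0.16), Gabarapl2 (-0.0044), Nbr1 (-0.0052) and Bnip3l (0.018) reversed.

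Leaving out 1 library at a time gave 1346 to 2662 genes higher and 663 to 2157 lower, and 0 to 2 members higher and 4 to 7 lower. Members whose sign turned in at least 1 of these fits, none of them called, ranged over -0.14 to 0.025 (Pik3c3), -0.065 to 0.048 (Atg4a), -0.0052 to 0.13 (Atg4b), -0.10 to 0.10 (Atg4c), -0.13 to 0.025 (Atg12), -0.0055 to 0.26 (Gabarapl1), -0.032 to 0.036 (Gabarapl2), -0.073 to 0.089 (Nbr1), -0.0996 to 0.022 (Bnip3l), -0.46 to 0.12 (Foxo1) and -0.25 to 0.12 (Foxo3). Shares ranged over -0.73 to 2.48 percentage points for Gabarap and -4.01 to 1.95 for Foxo1. Without length scaling the Gabarapl1 share difference was 0.043 percentage points.

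Deviations of libraries with the same replicate number correlated at 0.352 (dEx51 4 with WT 1), -0.010 and 0.056. The first was the highest of all dEx51 and WT pairs, but not every library correlated best with its own number. With only 3 libraries a group these values cannot decide whether the numbers pair the mice. With the replicate block 2508 genes were higher and 1960 lower, with 2 members higher and 8 lower, the additional one being Bnip3 (-0.31). Among the named pathway genes, the block called Klf15 (-0.76, edgeR adjusted p = 0.00142), Fbxo32 (-0.70, edgeR adjusted p = 0.0155) and Tbk1 (0.31, edgeR adjusted p = 0.0390), and did not call Tmem55b (edgeR adjusted p = 0.0610) or Rtn3 (0.0570); over all pathway lists it called 6 higher and 14 lower. With 3 libraries a group, low counts and a spread like that of Foxo1 limit what can be called.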
